A study of Homo sapiens with 24 samples.

Results

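Messenger RNA of 16 human heat shock protein genes was followed in acute myeloid leukaemia cells treated with metformin or left untreated. The genes are the protein-coding genes whose annotated symbol begins with HSPA, HSPH, HSPD, HSPE, HSP90, DNAJA, DNAJB or DNAJC, or is HSPB followed by digits. They are 16 of the 14884 genes that the platform annotation names. For each gene the row with the highest mean over the 24 arrays was used. The 16 comprise 11 HSPA genes (HSP70 family), HSPH1 (HSP110), HSPD1 (mitochondrial chaperonin) and 3 small heat shock protein genes (HSPB1, HSPB3 and HSPB8). None of them is a J-domain, HSP90 or HSPE gene. The DNAJ, HSP90 and HSPE genes, and the HSP70 genes HSPA5, HSPA8 and HSPA13, are not analysed here, so the set is called heat shock protein genes.

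The RNA came from established human lines (HL60, KG1a, MOLM14 and U937), 4 in all. Each was exposed to 10 mM metformin for 24 h or cultured untreated. Metformin is a biguanide drug that the study's design names as an inhibitor of respiratory complex I. Each of the 8 groups had 3 Affymetrix arrays (A, B and C), which made 12 metformin and 12 control arrays. Per the labels, KG1a and MOLM14 are high and HL60 and U937 low in oxidative phosphorylation (OXPHOS), and metformin-treated KG1a and MOLM14 are also given a low OXPHOS status. Separate cultures are not stated in the labels for the 3 arrays of a group, and p-values therefore reflect the spread between arrays, which may be technical. Each OXPHOS class consists of 2 lines, so class and line cannot be told apart beyond those lines. In bulk RNA of a culture, fewer cells expressing a gene and less RNA per cell cannot be told apart.

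Heat shock proteins are chaperones that bind unfolded or partly folded proteins. HSP70 proteins hold and release short hydrophobic stretches in an ATP-driven cycle, J-domain proteins bring them clients and stimulate their ATPase, and HSP110 and BAG proteins exchange their nucleotide. Small heat shock proteins hold unfolded clients without ATP, and the mitochondrial chaperonin encloses them in a chamber. The transcription factor HSF1 induces many of these genes on heat or proteotoxic stress through heat shock elements in their promoters, and malignant blood cells often carry high levels of several of them.

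Values are normalized log2 signals as deposited, and a change is the metformin mean minus the control mean of the log2 signal ± its standard error (SE). Tests are limma's moderated tests, and adjusted p is the Benjamini-Hochberg value over the 10641 genes with at least 1 group mean at or above 4.02, the median of all rows. A gene was called at an adjusted p under 0.05. Of the 16 heat shock protein genes, 12 were tested. HSPA12A, HSPA2, HSPB3 and HSPB8 had all 8 group means below 4.02 and were not tested.

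The array medians lay between 3.99 and 4.08, and correlations within groups between 0.983 and 0.993. The spread was less even, with an interquartile range of 1.90 on HL60 control C and 1.99 on U937 control C. It was 2.23 to 2.31 on the metformin arrays of HL60 and 2.09 to 2.28 on those of U937. Array C of the HL60 controls, array C of the U937 controls and array A of metformin-treated U937 stood apart from their groups, and the counts were repeated without them. Of 10 myeloid markers 7 were named. KG1a alone was high in CD34 (11.28 with metformin and 11.24 in control) and low in LYZ (3.39 and 3.46), while CD14, a monocyte marker, was below 4.02 in all 8 groups. Of 6 myeloid markers tested, metformin lowered MPO (myeloperoxidase) in MOLM14 by 1.32 ± 0.09 (adjusted p = 2.76e-09). In HL60 it lowered LYZ (lysozyme) by 0.48 ± 0.11 (0.00247) and SPI1, a myeloid transcription factor, by 0.34 ± 0.11 (0.0238). In KG1a and U937 none of the 6 was called, and the part of these markers in the heat shock protein changes was not tested. Of 7 genes listed as markers of other cell types 3 were named. EPCAM (3.87 to 4.04) and ALB (3.95 to 4.13) stayed near the median of all rows. PECAM1 lay between 5.54 and 6.66 in KG1a, MOLM14 and U937, and in HL60 at 3.31 in control and 3.17 with metformin. Bulk signal does not show which cells carried PECAM1, so its level is not read as a sign of foreign cells.

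Averaged over the 4 lines, metformin lowered 8 of the 12 tested heat shock protein genes and raised 0. Of all genes tested, 16.1% were called lower and 16.3% higher in this comparison. The 8 genes were HSPH1, HSPA1A, HSPA1B, HSPB1, HSPA14, HSPA4L, HSPA4 and HSPD1. Among these, HSPH1 was 1.56-fold, HSPA1B 1.52-fold and HSPA1A 1.51-fold lower. At an unadjusted p under 0.05 limma gave 1 higher gene, HSPA9 (20.5% of all genes). The median change of the 12 genes was -0.24, against -0.01 over all genes tested. With each line taken as 1 value, which leaves 4 changes per gene, 4 of the 8 passed (HSPH1, HSPA1A, HSPA1B and HSPB1). The share of all genes passing in that setting is not given here, so the loss cannot be set against genes in general.

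**Figure D1:**
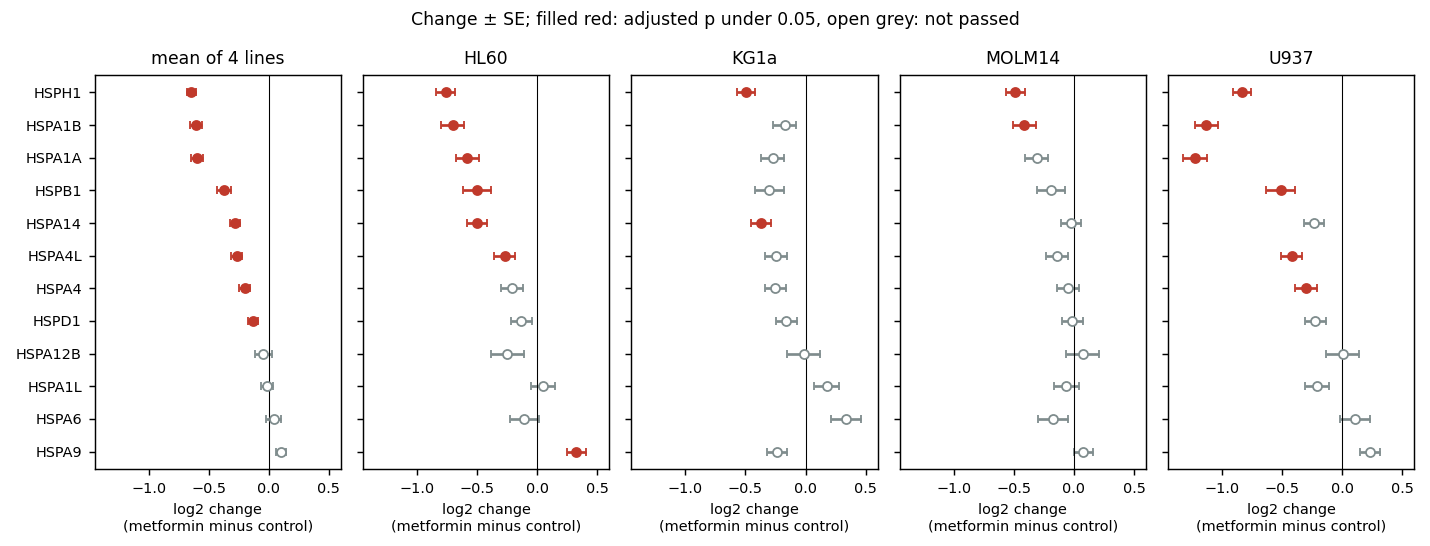
Log2 change (metformin minus control, horizontal axis) ± SE of the 12 tested heat shock protein genes, as the mean of the 4 lines and in each line; filled red points had an adjusted p under 0.05. HSPH1 lies left of 0 in every panel, HSPA1A and HSPA1B lie farthest left in U937, and HSPA9 lies right of 0 in HL60, MOLM14 and U937 and left of it in KG1a.

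In HL60, metformin lowered 6 of the 12 genes (9.56% of all genes) and raised 1 (15.5% of all genes). After quantile normalization the shares of all genes in HL60 were 14.5% lower and 12.04% higher, and 7 heat shock protein genes were lower and 1 higher. With arrays centred on their medians they were 6.47% lower and 17.01% higher, and 5 heat shock protein genes were lower and 1 higher. In U937, 6 were lower (9.74% of all genes) and 0 higher (7.46% of all genes), and after quantile normalization 8 were lower (11.4% of all genes) and 1 higher (8.14%). In KG1a the count was 2 lower (1.67% of all genes) and 0 higher (0.818%). In MOLM14 it was also 2 lower (2.57% of all genes) and 0 higher (2.48%). At an unadjusted p under 0.05 limma gave 1 higher gene in KG1a (5.17% of all genes), 0 in MOLM14 (8.95%) and 1 in U937 (13.7%). Lower genes at that unadjusted threshold numbered 9 of the 12 for U937, 7 for HL60, 7 for KG1a and 3 for MOLM14. The counts of KG1a and HL60 were the same at that threshold, although fewer KG1a genes were called, and the lines were not compared by these counts. Shares of all genes are not given for these lower counts, so they cannot be set against genes in general. The median change of the 12 genes was -0.26 in HL60, -0.24 in KG1a, -0.10 in MOLM14 and -0.27 in U937, against medians over all genes between -0.02 and 0.00.

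The 3 metformin arrays lay wholly below the 3 control arrays for 8 of the 12 genes in HL60 (16% of all genes), 6 in KG1a (13.7%), 4 in MOLM14 (13.0%) and 7 in U937 (16.3%). They lay wholly above for 1 gene in HL60 (HSPA9, 21.2% of all genes), 1 in KG1a (HSPA6, 7.31%), 0 in MOLM14 (13.3%) and 1 in U937 (HSPA9, 13.6%). HSPH1 and HSPA1A were separated downwards in 4 of 4 lines.

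HSPH1 encodes an HSP110 protein, which exchanges the nucleotide of HSP70 and helps it dissolve aggregates. Its log2 signal was 9.16, 9.14 and 9.06 on the metformin arrays of HL60, against 9.91, 9.95 and 9.79 on the control arrays. In KG1a HSPH1 read 8.98, 9.10 and 9.10 with metformin and 9.52, 9.49 and 9.65 in controls. These 2 lines had every metformin array below every control array. In MOLM14 HSPH1 read 9.87, 9.83 and 9.92 with metformin and 10.40, 10.41 and 10.28 in controls. For U937 the HSPH1 values were 9.03, 9.12 and 9.26 with metformin and 9.94, 10.04 and 9.93 in controls. The arrays did not overlap here either, and MOLM14 kept the highest values in both conditions. HSPH1 fell by 0.76 ± 0.08 in HL60 (adjusted p = 9.61e-08), by 0.50 ± 0.08 in KG1a (0.000598), by 0.49 ± 0.08 in MOLM14 (0.000362) and by 0.83 ± 0.08 in U937 (6.47e-08). It was the only one of the 12 genes called in all 4 lines, and averaged over the lines it fell by 0.64 ± 0.04 (adjusted p = 8.9e-12).

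HSPA1A and HSPA1B encode the stress-inducible cytosolic HSP70 from neighbouring, near-identical copies. For HSPA1A the metformin arrays of HL60 read 5.78, 5.83 and 5.81 and its control arrays 6.58, 6.40 and 6.19. In KG1a HSPA1A read 5.97, 6.07 and 6.14 with metformin and 6.42, 6.16 and 6.42 in controls. The separation was narrow in KG1a, where the highest metformin array lay just below control B. In MOLM14 HSPA1A read 6.54, 6.58 and 6.67 with metformin and 7.04, 6.79 and 6.90 in controls. In U937 HSPA1A read 6.90, 7.13 and 7.04 with metformin and 8.30, 8.29 and 8.17 in controls. U937 had the highest HSPA1A signal untreated and the widest gap between conditions, and no line overlapped. The HSPA1A change was -0.58 ± 0.10 in HL60 (adjusted p = 9.28e-05) and -1.23 ± 0.10 in U937 (5.01e-09). The U937 change is a 2.34-fold fall. The values of -0.27 ± 0.10 in KG1a (adjusted p = 0.150) and -0.31 ± 0.10 in MOLM14 (0.0652) did not pass. The MOLM14 change passed in some of the other settings, with adjusted p 0.0182 after quantile normalization and 0.0279 without the 3 arrays that stood apart.

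HSPA1B read 6.52, 6.44 and 6.40 on the metformin arrays of HL60 and 7.25, 7.22 and 7.002 on its control arrays. In KG1a HSPA1B read 6.75, 6.78 and 6.91 with metformin and 7.12, 6.81 and 7.04 in controls. KG1a was the line whose HSPA1B arrays overlapped. In MOLM14 HSPA1B read 7.37, 7.23 and 7.52 with metformin and 7.87, 7.69 and 7.79 in controls. In U937 HSPA1B read 7.10, 7.18 and 7.12 with metformin and 8.29, 8.35 and 8.14 in controls. The groups were apart in HL60, MOLM14 and U937, most widely in U937. HSPA1B fell by 0.70 ± 0.09 in HL60 (adjusted p = 6.22e-06), by 0.41 ± 0.09 in MOLM14 (0.01005) and by 1.13 ± 0.09 in U937 (1.21e-08). The KG1a value was -0.17 ± 0.09 (adjusted p = 0.402). The MOLM14 call was lost without MOLM14 control A (adjusted p = 0.0640) and without MOLM14 metformin B (0.0808).

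Probes of HSPA1A, HSPA1B and HSPA1L can share sequence, so their signals may not be separate measurements. Each of the 3 genes had 5 rows on the array. The 5 rows were 3 distinct sets of values for HSPA1A, 5 for HSPA1B and 3 for HSPA1L. In U937 the change ranged from -1.29 to -1.23 over the HSPA1A rows, from -1.21 to -1.10 over the HSPA1B rows and from -0.28 to -0.21 over the HSPA1L rows. In HL60 the HSPA1B rows ranged from -1.002 to -0.70. With HSPA1A and HSPA1B averaged into 1 gene, 7 of the genes then tested were lower in the mean of the lines. In MOLM14 the averaged gene changed by -0.36 (adjusted p = 0.0225).

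The promoters of 4 genes that fell are shown because each holds a letter match to a heat shock element, the type of site that HSF1 binds. The HSPA1A and HSPA1B windows are also nearly the same. Such matches were not confined to genes that fell, and their part in the changes was not tested. They are the 250 bases before the annotated start, on the gene's strand, from RefSeq GRCh38.p14, with element matches in capitals. HSPA1A is chr6:31815293-31815542 (+), HSPA1B chr6:31827488-31827737 (+), HSPB1 chr7:76302423-76302672 (+) and HSPD1 chr2:197499841-197500090 (-).
HSPA1A: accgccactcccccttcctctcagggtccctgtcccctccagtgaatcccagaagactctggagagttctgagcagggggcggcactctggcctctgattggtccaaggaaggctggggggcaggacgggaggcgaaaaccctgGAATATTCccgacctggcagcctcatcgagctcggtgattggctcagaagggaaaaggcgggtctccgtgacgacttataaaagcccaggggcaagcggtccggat
HSPA1B: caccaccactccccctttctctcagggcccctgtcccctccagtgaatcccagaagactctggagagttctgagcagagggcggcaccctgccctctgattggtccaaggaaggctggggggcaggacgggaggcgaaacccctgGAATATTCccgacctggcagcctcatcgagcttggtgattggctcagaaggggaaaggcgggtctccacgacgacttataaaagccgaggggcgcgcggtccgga
HSPB1: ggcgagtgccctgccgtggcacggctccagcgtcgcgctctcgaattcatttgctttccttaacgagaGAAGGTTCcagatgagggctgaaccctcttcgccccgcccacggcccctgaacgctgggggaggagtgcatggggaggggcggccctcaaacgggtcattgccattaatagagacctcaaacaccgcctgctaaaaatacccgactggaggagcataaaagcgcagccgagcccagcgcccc
HSPD1: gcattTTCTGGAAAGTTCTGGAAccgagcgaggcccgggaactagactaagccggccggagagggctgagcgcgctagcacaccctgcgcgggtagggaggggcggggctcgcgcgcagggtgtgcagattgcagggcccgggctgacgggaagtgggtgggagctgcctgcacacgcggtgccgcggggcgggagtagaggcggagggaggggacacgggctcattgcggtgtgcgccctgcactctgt
The HSPA1A and HSPA1B windows were identical at 235 of 249 aligned bases (94.4%), the match included.

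Windows of 300 bases (250 before and 50 after the start) were searched on both strands for 2-unit elements, GAANNTTC or TTCNNGAA, where N is any base. Of all 35116 promoters, 6.77% held GAANNTTC, 7.74% held TTCNNGAA and 13.5% held either. Of the 16 heat shock protein genes, 14 had a listed promoter (HSPA12B and HSPA14 had none), and 10 of these 14 held either element. A gene was counted if any of its windows held a match, whereas the shares of all promoters count single windows. The 2 measures are therefore not alike for genes with several annotated starts. HSPA1A held GAATATTC at -106 (counting the base before the start as -1), HSPA1B held it at -105 and HSPB1 held GAAGGTTC at -182. HSPD1 held 3 overlapping matches from -245, and its second annotated start had none. HSPA4L held TTCTCGAA at -170, and its other annotated starts had none. The matches of HSPA1A and of HSPA1L, a neighbour read from the opposite strand, are the same site at chr6:31815437-31815444. By call, 5 of the 7 genes that fell and had a listed promoter held a 2-unit match (HSPA1A, HSPA1B, HSPB1, HSPD1 and HSPA4L). HSPA4 and HSPH1 held none. All 3 genes tested but not called that had a listed promoter held a match (HSPA1L, HSPA6 and HSPA9). A 3-unit element, GAANNTTC directly followed by NNGAA, or its reverse complement, was in 2 genes, HSPD1 and HSPA6, and in 0.490% of all promoters. It overlaps the 2-unit letters. The endoplasmic reticulum (ER) stress element, CCAAT and then CCACG after 9 bases, was in 0 of the 14 and in 0.0769% of all promoters. A match is a run of letters only, and HSF1 binding was not measured.

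HSPA4 and HSPA4L encode further HSP110-type exchange factors. For HSPA4L the metformin arrays of HL60 read 8.84, 8.93 and 8.87 and its control arrays 9.22, 9.23 and 9.01. In KG1a HSPA4L read 8.63, 8.48 and 8.70 with metformin and 8.89, 8.81 and 8.83 in controls. Both lines were without overlap. In MOLM14 HSPA4L read 8.11, 7.86 and 7.88 with metformin and 8.04, 8.11 and 8.11 in controls. In U937 HSPA4L read 7.58, 7.68 and 7.75 with metformin and 8.23, 7.97 and 8.08 in controls. MOLM14 overlapped through metformin A, and U937 was fully separated. HSPA4L fell by 0.27 ± 0.04 on average (adjusted p = 4.94e-05), by 0.27 ± 0.09 in HL60 (0.0279) and by 0.42 ± 0.09 in U937 (0.00194). The values of -0.24 ± 0.09 in KG1a and -0.14 ± 0.09 in MOLM14 did not pass. The HL60 call was lost without control A (adjusted p = 0.0871), control B (0.108), metformin A (0.0882) or metformin C (0.0667), in the fit of the 6 HL60 arrays alone (0.0770) and with arrays centred on their medians (0.0882).

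HSPA4 read 8.53, 8.56 and 8.56 on the metformin arrays of HL60 and 8.78, 8.76 and 8.73 on its control arrays. In KG1a HSPA4 read 8.16, 8.11 and 8.17 with metformin and 8.34, 8.39 and 8.47 in controls. These lines were separated by small gaps. In MOLM14 HSPA4 read 9.35, 9.21 and 9.24 with metformin and 9.20, 9.33 and 9.41 in controls. In U937 HSPA4 read 7.93, 8.22 and 8.39 with metformin and 8.57, 8.50 and 8.37 in controls. Both of these overlapped. The mean fall was 0.20 ± 0.05 (adjusted p = 0.00143). The HL60 value of -0.21 ± 0.09 did not pass (adjusted p = 0.102), but passed after quantile normalization (0.0414). U937 was the line that passed (-0.30 ± 0.09, adjusted p = 0.0260). That call was lost without metformin A, when the U937 change was -0.17 (adjusted p = 0.216), without control A (0.110), without control B (0.0727), without the 3 arrays that stood apart (0.101) and in the fit of the 6 U937 arrays alone (0.165).

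HSPA14 encodes an atypical HSP70 that sits at the ribosome with a J-domain partner. It read 6.74, 6.76 and 6.62 on the metformin arrays of HL60 and 7.34, 7.17 and 7.10 on its control arrays. In KG1a HSPA14 read 7.27, 7.35 and 7.42 with metformin and 7.74, 7.68 and 7.73 in controls. HL60 and KG1a were both clearly apart. In MOLM14 HSPA14 read 7.38, 7.23 and 7.36 with metformin and 7.42, 7.24 and 7.37 in controls. In U937 HSPA14 read 7.21, 7.43 and 7.26 with metformin and 7.60, 7.54 and 7.46 in controls. MOLM14 overlapped almost fully, while U937 arrays were narrowly apart. HSPA14 fell by 0.50 ± 0.08 in HL60 (adjusted p = 8.58e-05) and by 0.37 ± 0.08 in KG1a (0.0165). The MOLM14 value was -0.02 ± 0.08 (adjusted p = 0.933) and the U937 value -0.23 ± 0.08 (0.0536). The KG1a call was lost without control A (adjusted p = 0.0665), control C (0.0679) or metformin A (0.0912) and in the fit of the 6 KG1a arrays alone (0.0735). The U937 value passed in several other settings, with adjusted p 0.0379 after quantile normalization and 0.0387 with the stricter filter (a group mean of at least 5).

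HSPA6, HSPA1L and HSPA12B, also of the HSP70 family, were near the lower end of the signal range and none of these 3 was called with metformin. HSPA6, a strictly heat-inducible HSP70 with a near-identical pseudogene (HSPA7), ranged from 3.81 to 4.57 over the 24 arrays. In KG1a HSPA6 read 4.21, 4.25 and 4.23 with metformin and 3.87, 3.89 and 3.93 in controls. These KG1a arrays were apart, but the difference of 0.34 ± 0.12 did not pass (adjusted p = 0.167). HSPA1L, whose protein is best known in testis, ranged from 4.07 to 5.04 and its mean change was -0.01 ± 0.05 (adjusted p = 0.877). HSPA12B, a distant HSP70 relative described in endothelium, ranged from 3.76 to 4.41 and its mean change was -0.05 ± 0.07 (adjusted p = 0.653). Among the 4 untested genes, HSPA12A ranged from 3.69 to 4.11, HSPA2 from 3.42 to 4.19, HSPB3 from 2.97 to 3.38 and HSPB8 from 3.64 to 3.99. With no filter on low values, HSPA2 was also lower in the mean of the lines.

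**Figure D2:**
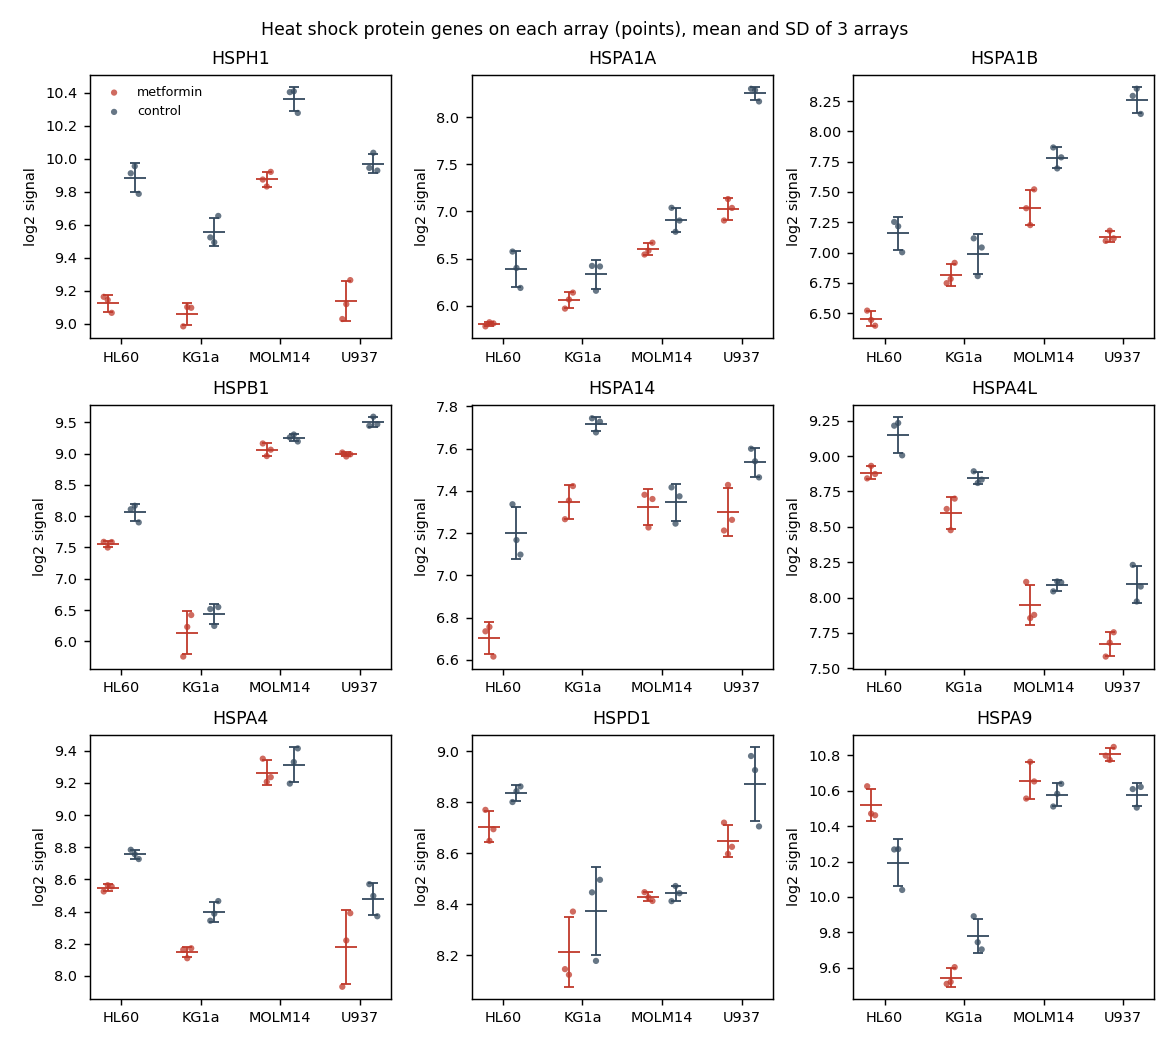
Log2 signal (vertical axis, scaled separately per gene) of 9 heat shock protein genes on each array, with the mean and SD of the 3 arrays, metformin (red) left of control (blue-grey) in each line. HSPH1 and HSPA1A separate the conditions in all 4 lines, and HSPA9 has metformin above control in HL60 and U937 and below it in KG1a.

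HSPB1 encodes HSP27, a small heat shock protein that holds unfolded clients and binds the actin cytoskeleton. It read 7.59, 7.50 and 7.59 on the metformin arrays of HL60 and 8.11, 8.17 and 7.90 on its control arrays. In KG1a HSPB1 read 5.76, 6.23 and 6.42 with metformin and 6.52, 6.25 and 6.55 in controls. HL60 was apart, and KG1a overlapped and had the lowest HSPB1 values of all lines. In MOLM14 HSPB1 read 9.16, 8.96 and 9.06 with metformin and 9.26, 9.30 and 9.19 in controls. In U937 HSPB1 read 9.02, 8.95 and 8.99 with metformin and 9.44, 9.59 and 9.47 in controls. MOLM14 was narrowly and U937 widely separated. HSPB1 fell by 0.50 ± 0.12 in HL60 (adjusted p = 0.00290) and by 0.51 ± 0.12 in U937 (0.00402). The KG1a value was -0.30 ± 0.12 (adjusted p = 0.205) and the MOLM14 value -0.19 ± 0.12 (0.443). Averaged over the lines, HSPB1 fell by 0.38 ± 0.06 (adjusted p = 2.8e-05).

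HSPD1 and HSPA9 are the mitochondrial chaperone genes of the set. HSPD1 encodes HSP60, the chaperonin of the matrix. It read 8.77, 8.65 and 8.69 on the metformin arrays of HL60 and 8.80, 8.84 and 8.86 on its control arrays. In KG1a HSPD1 read 8.14, 8.12 and 8.37 with metformin and 8.45, 8.18 and 8.50 in controls. HSPD1 was narrowly apart in HL60 and overlapped in KG1a. In MOLM14 HSPD1 read 8.45, 8.43 and 8.41 with metformin and 8.41, 8.47 and 8.44 in controls. In U937 HSPD1 read 8.72, 8.60 and 8.62 with metformin and 8.98, 8.93 and 8.70 in controls. MOLM14 and U937 overlapped as well. HSPD1 fell by 0.13 ± 0.04 on average (adjusted p = 0.0250) and passed in 0 of the 4 lines. The mean call was lost without HL60 (adjusted p = 0.0963), without U937 (0.150), without KG1a control C (0.0541) and without U937 control A (0.0518). It was also lost with arrays centred on their medians (0.0578). The HSPD1 change in U937 was -0.22 ± 0.09 (adjusted p = 0.0869). That change passed after quantile normalization (0.0427), without U937 control C (0.0275) and without the 3 arrays that stood apart (0.0302).

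HSPA9 encodes mortalin, the HSP70 of the matrix, which drives protein import. It read 10.63, 10.47 and 10.46 on the metformin arrays of HL60 and 10.27, 10.27 and 10.04 on its control arrays. In KG1a HSPA9 read 9.51, 9.52 and 9.60 with metformin and 9.89, 9.74 and 9.70 in controls. The order of the conditions was opposite in these 2 lines, with no overlap in either. In MOLM14 HSPA9 read 10.56, 10.76 and 10.65 with metformin and 10.51, 10.58 and 10.64 in controls. In U937 HSPA9 read 10.80, 10.77 and 10.85 with metformin and 10.61, 10.51 and 10.62 in controls. MOLM14 overlapped, and U937 had all metformin arrays above its controls. HSPA9 rose by 0.33 ± 0.08 in HL60 (adjusted p = 0.00479). The change was 0.23 ± 0.08 in U937 (adjusted p = 0.0577), 0.08 ± 0.08 in MOLM14 (0.703) and -0.24 ± 0.08 in KG1a (0.143). The mean over the lines was 0.10 ± 0.04 and did not pass (adjusted p = 0.0662). It passed without KG1a, at 0.21 (adjusted p = 0.00258), after quantile normalization, at 0.11 (0.0267), and with trended moderation (0.0211), among others. With trended moderation the U937 (adjusted p = 0.0157) and KG1a (0.0465) changes also passed.

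The size of the change differed between lines for 4 of the 12 genes in limma's F test (10.0% of all genes), namely HSPA1A (adjusted p = 9.72e-05), HSPA1B (0.000174), HSPA9 (0.00889) and HSPA14 (0.0380). To see which line stood out, the change in each line was set against the mean change of the other 3 lines, a comparison added after seeing the data. U937 had larger falls of HSPA1A (difference -0.84 ± 0.11, adjusted p = 0.000102) and HSPA1B (-0.70 ± 0.11, adjusted p = 0.000538), and 1.42% of all genes were lower in this way. In KG1a the changes of HSPA1A (0.43 ± 0.11, adjusted p = 0.0322) and HSPA1B (0.58 ± 0.11, adjusted p = 0.00325) lay above those of the other lines (0.930% of all genes). The KG1a change of HSPA9 lay below them (-0.45 ± 0.09, adjusted p = 0.00834, 2.43% of all genes). The KG1a difference of HSPA1A was lost without KG1a control B (adjusted p = 0.128), metformin B (0.0821) or metformin C (0.0966), and with arrays centred on their medians (0.0705). No heat shock protein gene passed this comparison for HL60 (7.70% of all genes) or MOLM14 (1.29%), where 2 (22.2% of all genes) and 4 (12.5%) had an unadjusted p under 0.05 in limma. In HL60 it gave 0.30 ± 0.09 for HSPA9 (adjusted p = 0.0508), which passed in several other settings (adjusted p from 0.0104 with trended moderation to 0.0499 with the mean of a gene's rows). HSPA14 gave -0.29 ± 0.10 in HL60 (adjusted p = 0.0634) and passed after quantile normalization (0.0125), with the stricter filter (0.0467) and without the 3 arrays that stood apart (0.0378), among others. In MOLM14, HSPA14 gave 0.34 ± 0.10 (adjusted p = 0.0756) and HSPA1A 0.38 ± 0.11 (0.101). Without the 3 arrays that stood apart both passed, HSPA14 at 0.0471 and HSPA1A at 0.0356.

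The design also asks whether the lines labelled high OXPHOS respond differently from those labelled low. The mean change of the high OXPHOS lines (KG1a, MOLM14) less that of the low OXPHOS lines (HL60, U937) passed for 4 of the 12 genes (6.69% of all genes). It was positive, a smaller fall in the high OXPHOS lines, for HSPA1A, HSPA1B and HSPH1 (2.05% of all genes), and negative for HSPA9 (4.64%). After quantile normalization the shares of all genes were 3.29% positive and 4.47% negative, with 3 positive and 1 negative heat shock protein genes. HSPA1A changed by -0.27 in KG1a and -0.31 in MOLM14, against -0.58 in HL60 and -1.23 in U937. HSPA1B changed by -0.17 in KG1a and -0.41 in MOLM14, against -0.70 in HL60 and -1.13 in U937. For HSPH1 the changes were -0.50 in KG1a and -0.49 in MOLM14, against -0.76 in HL60 and -0.83 in U937. The order was the same for these 3 genes, with both high OXPHOS lines less lowered than both low OXPHOS lines. The class difference was 0.61 ± 0.10 for HSPA1A (adjusted p = 0.000289), 0.63 ± 0.09 for HSPA1B (0.000178), 0.30 ± 0.08 for HSPH1 (0.0177) and -0.36 ± 0.08 for HSPA9 (0.00881).

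These class differences depended unequally on single lines. HSPA1B passed whichever line was left out, with differences from 0.41 (without U937, adjusted p = 0.0347) to 0.84 (without HL60, 0.000374). HSPA1A did not pass without U937, at 0.29 (adjusted p = 0.147). HSPA9 did not pass without KG1a, at -0.20 (adjusted p = 0.380), or without HL60, at -0.31 (0.0975). For HSPH1 the difference stayed between 0.27 and 0.34 when any 1 line was left out, in fits with fewer arrays. It then did not pass (adjusted p between 0.0701 and 0.113), nor with arrays centred on their medians, at 0.29 (0.0511). The difference for HSPB1 was 0.26 ± 0.12 (adjusted p = 0.198), and it passed without KG1a metformin A, at 0.36 (0.0219).

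Before treatment, limma's F test over the 4 untreated groups passed for 83.2% of all genes. It passed for 11 of the 12 heat shock protein genes (91.7%, all but HSPA12B), a share near that background. HSPB1 had the widest spread, 3.06 between group means. Its untreated order was U937 (9.50 ± 0.08, SD, n = 3), MOLM14 (9.25 ± 0.06), HL60 (8.06 ± 0.14) and KG1a (6.44 ± 0.17), and no neighbours in this order overlapped. For HSPA1A the untreated order was U937 (8.25 ± 0.07), MOLM14 (6.91 ± 0.13), HL60 (6.39 ± 0.19) and KG1a (6.33 ± 0.15), a spread of 1.92. HL60 and KG1a overlapped, and the steps above them did not. HSPA1B had the same order, from 8.26 ± 0.11 in U937 down to 6.99 ± 0.16 in KG1a, a spread of 1.28, again with overlap between HL60 and KG1a only. With metformin the group means of HSPA1A spanned 1.22, from 5.81 in HL60 to 7.02 in U937. For HSPB1 they spanned 2.92, from 6.14 in KG1a to 9.06 in MOLM14.

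The other genes had other orders. Untreated HSPA4 was highest in MOLM14 (9.31) and HSPH1 likewise (10.36), both apart from the next line. HSPA4L was highest in HL60 (9.15) and HSPA14 in KG1a (7.72), also apart from the next. HSPA9 averaged 10.58 in both U937 and MOLM14, which overlapped, and 9.78 in KG1a. Against the mean of the other 3 untreated lines, KG1a was lower in 9 of the 12 genes (33.6% of all genes) and higher in 2, HSPA14 and HSPA4L (29.2%). MOLM14 was higher in 6 (27.6% of all genes) and lower in 2 (34.4%), and U937 higher in 6 (30.8%) and lower in 2 (30.6%). HL60 was higher in 2 (29.8%) and lower in 4 (28.6%). The KG1a difference was -2.50 ± 0.10 for HSPB1 (adjusted p = 2.04e-17), and the U937 difference was 1.71 ± 0.08 for HSPA1A (1.58e-15).

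**Figure D3:**
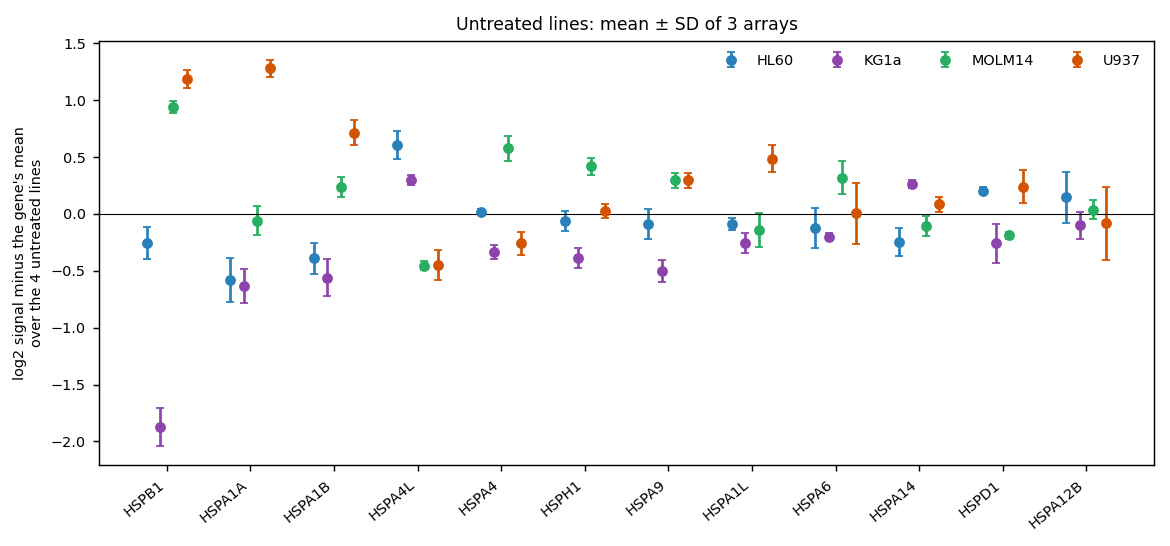
Untreated log2 signal minus the gene's mean over the 4 untreated lines (vertical axis), mean ± SD of 3 arrays per line, for the 12 tested heat shock protein genes in order of their spread. HSPB1 in KG1a lies farthest below 0 and HSPA1A in U937 farthest above it.

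Set by class, untreated KG1a and MOLM14 minus untreated HL60 and U937 passed for 9 of the 12 genes (61.9% of all genes). HSPA14 (0.16 ± 0.06) and HSPA4 (0.24 ± 0.06) were higher in the high OXPHOS lines (28.4% of all genes). The 7 others were lower (33.5%). Among them were HSPB1 at -0.93 ± 0.08, HSPA1A at -0.70 ± 0.07, HSPD1 at -0.45 ± 0.06 and HSPA1L at -0.40 ± 0.07. These class values rested on single lines. HSPB1 was 0.47 without KG1a, HSPA1A was 0.23 without U937, and 7 of the 9 genes changed sign when 1 line was left out. The exceptions were HSPD1, which passed whichever line was left out, and HSPA1L, which did not pass without U937 (-0.11, adjusted p = 0.299). The metformin changes share the control arrays with these untreated values, so the comparisons are not independent.

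Around the heat shock proteins, 22 cochaperones and regulators of HSP70 and HSP90 were tested, of 34 listed. Averaged over the lines 11 were lower (16.1% of all genes) and 1 higher (16.3%), with a median change of -0.12. The fallers included BAG1 (-0.33 ± 0.05, adjusted p = 1.59e-05), BAG2, BAG3 and BAG5, which bind the HSP70 ATPase domain. They also included STIP1, which joins HSP70 to HSP90, and the HSP90 partners CDC37 and PTGES3. HSPBAP1, named for its binding to HSPB1, rose by 0.48 ± 0.06 (adjusted p = 2.42e-06). The change of HSF1 itself was -0.12 ± 0.07 and did not pass (adjusted p = 0.198). Within lines, 6 were lower (9.56% of all genes) and 2 higher (15.5%) in HL60, and 7 lower (9.74%) and 1 higher (7.46%) in U937. In MOLM14 0 were lower (2.57%) and 1 higher (2.48%), and in KG1a 0 lower (1.67%) and 0 higher (0.818%).

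**Figure D4:**
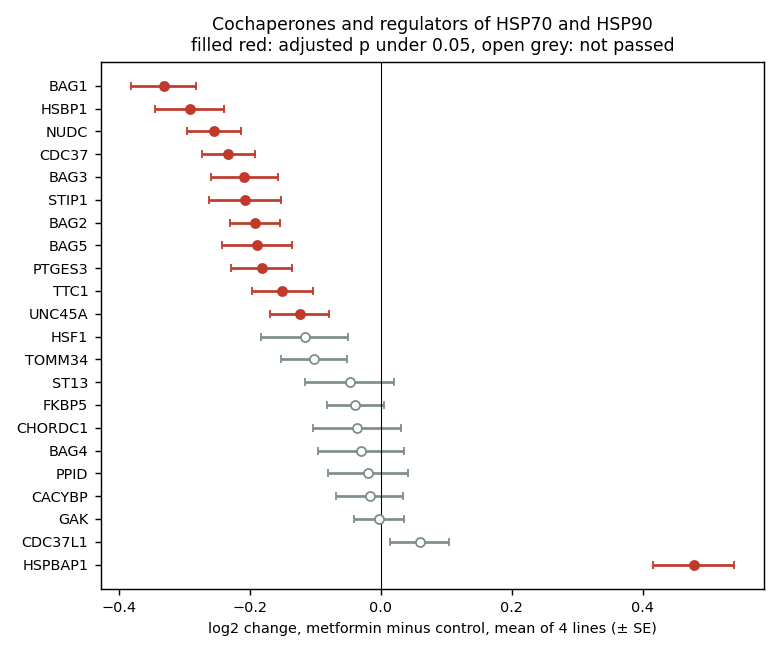
Log2 change (metformin minus control, mean of the 4 lines, horizontal axis) ± SE of 22 cochaperones and regulators of HSP70 and HSP90; filled red points had an adjusted p under 0.05. The 11 lower genes lie between -0.33 and -0.12, and HSPBAP1 stands apart at 0.48.

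Of 21 listed genes of the cytosolic chaperonin, prefoldin and tubulin cofactors, 12 were tested, none a chaperonin subunit. Of these, 5 were lower and 0 higher, with a median change of -0.09. PFDN6, a prefoldin subunit, fell by 0.23 ± 0.05 (adjusted p = 0.000373), and TBCC, a tubulin folding cofactor, by 0.21 ± 0.04 (0.000601). Of 29 listed genes of ER folding and the unfolded protein response, 21 were tested, and 9 were lower and 4 higher (median -0.11). SDF2L1, an ER partner of HSP70 and J-domain proteins, fell by 0.98 ± 0.07 on average (adjusted p = 7.09e-11) and passed in 4 of 4 lines. ERN1, the ER stress sensor IRE1, rose by 0.66 ± 0.06 (adjusted p = 7.85e-09), by 1.62 ± 0.12 in HL60 and by 0.89 ± 0.12 in U937, and did not pass in KG1a or MOLM14. Of 18 listed genes of mitochondrial proteostasis, 13 were tested, with 3 lower and 2 higher (median -0.01). OMA1, a stress-activated protease of the inner membrane, rose by 0.32 ± 0.04 (adjusted p = 1.6e-06), and TRAP1, the mitochondrial HSP90, fell by 0.18 ± 0.03 (0.000142). The background shares are those of the mean of the 4 lines given above.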

How the data were processed

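RNA (250 ng of total RNA per array) was labelled with the GeneChip WT PLUS kit, per the labels' protocols. The deposited data are 1 table of 53617 rows for 24 arrays, whose log2 values (the authors' normalized signals) are recognised as such from their range of 1.88 to 14.2. The submitters' processing notes list Partek. How background was corrected and signals normalized and summarised is not given in the sources used here. In all, the platform annotation names 1 gene for 16098 rows (14884 genes), and 37519 rows are unnamed here.

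Each gene was taken from its row of highest mean signal. Genes with at least 1 group mean of 4.02 or more were kept (10641). limma 3.58.1 (R 4.3.3) fitted 8 group means (16 residual degrees of freedom) with eBayes, with Benjamini-Hochberg adjustment over these genes. The number of arrays limits the precision and no signal over background was available. At most 5 rows were identical between arrays of a group.

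The heat shock protein genes and the 4 pathway lists were chosen with earlier results of these data known. Values per array are given for the called genes with the largest mean changes (at most 10), the largest class differences of the change (at most 5), the largest change in each line and the 3 largest untreated ranges. They are also given for HSPA6 in KG1a, which was not called and lies outside this rule. From each pathway list come counts and the 2 genes of smallest adjusted p. Other genes named from the lists were chosen after their values were seen.

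Alternatives tried were arrays centred or quantile normalized, stricter or no filters, a stricter threshold, trended moderation, protein-coding genes only, the mean of a gene's rows, a replicate block, each line's 6 arrays alone, each line as 1 value, and leaving out each array or line. Averaging HSPA1A with HSPA1B, the settings for single genes within lines, and 1 line against the other 3 were added after seeing the data. The calculations were tested on simulated data, where 100 genes changed by 0.3 and 100 by 0.6 in all lines. Within a line 18 to 24% of the changes of 0.3 and 82 to 86% of those of 0.6 were called. In the mean of the 4 lines 88% and 100% were called. A change near 0.3 that did not pass within a line may therefore still be present. Promoters came from RefSeq GRCh38.p14, the alignment of 2 windows from Biopython 1.88, and figures from matplotlib 3.10.9 in Python 3.11.15.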

Additional observations from a re-analysis of the deposited data

Results flagged for a closer look

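The metformin change differed between the high and the low OXPHOS lines for 4 heat shock protein genes, by limma's test of the difference (high minus low). The differences were 0.61 for HSPA1A, 0.63 for HSPA1B, 0.30 for HSPH1 and -0.36 for HSPA9. HSPA1B passed whichever line was left out, and the other 3 lost the call without at least 1 line. The HSPH1 difference stayed between 0.27 and 0.34 in those fits. HSPH1 also lost the call with arrays centred on their medians (adjusted p = 0.0511). In limma's F test of the change between the 4 lines, the adjusted p was 9.72e-05 for HSPA1A, 0.000174 for HSPA1B, 0.00889 for HSPA9 and 0.0380 for HSPA14. HSPA1A and HSPA1B are near-identical copies and may count as 1 signal.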

How the results depend on the processing

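The numbers of heat shock protein genes called were within 1.5 times the reported ones in most settings. Shares of all genes are not given for the settings of this section, so its counts cannot be set against genes in general. For the mean of the 4 lines 4 genes were called with each line as 1 value. In KG1a 1 gene (HSPH1) was called in the fit of its 6 arrays alone and 1 at an adjusted p under 0.01, and in MOLM14 1 at that threshold. Leaving out 1 array gave 1 to 2 genes in KG1a and 1 to 3 in MOLM14. The class difference of the change passed for 2 genes without HL60, 2 without KG1a and 2 without U937. The untreated class difference passed for 5 without U937. It turned its sign for HSPA14 (-0.0038) and HSPA4L (0.37) without HL60, and for HSPA14 (-0.022), HSPA1B (0.072), HSPA9 (0.19) and HSPB1 (0.47) without KG1a. Without MOLM14 it turned for HSPA4 (-0.22) and HSPA4L (0.22), and without U937 for HSPA1A (0.23) and HSPA1B (0.23). These settings use fewer lines, and the cause was not tested otherwise.

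The main tests did not pair arrays by the letters A to C, and the labels do not say whether the letters pair them. Same-letter arrays of a line had deviations that correlated between -0.06 and 0.15. In HL60 the same-letter values were 0.06, 0.07 and 0.15, against -0.10 to 0.04 between different letters. In U937 the highest value, 0.14, was between different letters. With 3 arrays per group these correlations cannot settle pairing, and a replicate block was therefore also fitted. With a replicate block, the count was 8 for the mean of the lines, 6 in HL60, 2 in KG1a, 2 in MOLM14, 5 in U937, 4 for the class difference of the change and 8 for the untreated class difference. The calls it ended were HSPA4L in HL60 (adjusted p = 0.0534), HSPA4 in U937 (0.0691), HSPA4L in the untreated class difference (0.0582), HSPA14 in the F test of the change, and HSPA1A in KG1a against the other lines (0.0644). The signal over background was not available, and 3 arrays per group limit what can be seen within a line.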

Other observations

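Rows set aside because they are not protein-coding gave these values. HSPA7, the transcribed pseudogene nearly identical to HSPA6, changed by -0.04 ± 0.06 (log2, SE) with metformin over the 4 lines (limma adjusted p = 0.673). The antisense RNA DNAJC9-AS1 changed by -0.11 ± 0.05 (adjusted p = 0.109). DNAJC27-AS1 had group means between 3.25 and 3.44 and was not tested.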
